A study of Mus musculus with 10 samples.

Results

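The homeobox genes Six2, Six3, Six4, Six5 and Six6 and their Eya partners Eya1, Eya2, Eya3 and Eya4 were examined for the histone mark H3K27me3 in fetal liver hematopoietic stem cells. The 9 genes, of 21951 protein-coding genes in the annotation, were chosen by name as members of these families. Peaks were counted along the gene body and in a promoter window, which reached from 5 kb before to 100 bp after each transcription start site (TSS) in the annotation. All 9 genes were found in the annotation, and 38 of the 23606 peaks of the study's H3K27me3 libraries lay at their promoters or bodies.

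The series holds 10 samples. Of these, 6 are H3K27me3 CUT&Tag libraries made at E14.5 on LT-HSCs, the long-term repopulating stem cells of blood, which were sorted from mouse fetal liver by an LSK CD48-CD150+ gate, and the other 4, CUT&Tag for IκBα itself, were not used here. There were 3 wild-type (WT) libraries and 3 libraries from embryos lacking IκBα (KO), the NF-κB inhibitor encoded by Nfkbia. CUT&Tag tethers a Tn5 transposase to an antibody on chromatin, so that the sequenced fragments mark where the antibody bound. Embryos came from crosses of heterozygous parents of a constitutive Nfkbia knockout line, some of which carried a Gfi1:tomato reporter allele. The study used more embryos than libraries in each genotype, over fewer independent experiments than replicates, so that some libraries held cells of several embryos. Which libraries were pooled or shared an experiment, and which carried the reporter allele, was not given in the sources used here. Each library was made from a small number of sorted cells. Replicates 1 and 2 of both genotypes were read at 75 bp and replicate 3 of both at 50 bp.

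Proteins of the sine oculis homeobox family, encoded by Six2 to Six6 among others, are transcription factors that bind DNA through a homeodomain and an adjoining family domain. EYA proteins do not bind DNA themselves. They are recruited by sine oculis proteins, act as transcriptional coactivators and carry a tyrosine phosphatase domain, and both families work with PAX and DACH factors in the eye, kidney, ear and skeletal muscle. H3K27me3 is written by the polycomb repressive complex PRC2 and is typically found as broad domains over CpG-rich promoters of developmental regulators that are silent in a given cell type.

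The read totals that the study lists per library were not used here, and in each genotype replicate 3 had the fewest uniquely mapped reads. Depth was described through the peaks. WT libraries had 4160, 6013 and 1047 peaks and KO libraries 4904, 5157 and 2325 peaks in replicates 1, 2 and 3. Both replicate 3 libraries stood apart, covering 1.90 Mb in WT and 7.61 Mb in KO against 18.2 to 27.8 Mb in the other 4, and the WT replicate 3 peaks were also narrower and shallower. Nfkbia had no peak in any library, so these peaks do not check the genotype labels. Of 9 genes known to be active in hematopoietic stem cells, among them Kit, Runx1, Gata2 and Mecom, none had a peak at its promoter or body in any library, where 17.6% of all genes had one. Of 16 markers of other fetal liver cell types, 4 had a promoter peak in at least 1 library, where 15.9% of all promoters did, namely the B cell factors Pax5 and Ebf1 in all 6 libraries, the endothelial receptor Kdr in 1 WT library and the T cell gene Cd3e in 1 KO library.

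The sequences are shown for 3 promoters and 2 peak cores, with every CpG, the dinucleotide in which polycomb-marked promoters are rich, in capitals. The promoters are those of Six2, which lay within a broad peak in most libraries, of Six5, whose promoter window was called in KO libraries alone by peaks that stop short of the printed stretch, and of Eya3, which had no peak. The promoter stretches stop at the first annotated exon and were taken from RefSeq on GRCm38.p6, and the peak cores were read from the same genome build within the stretch that all called libraries shared, at the centre of its longest part free of annotated UTRs. The Six2 stretch is chr17:85688275-85688504 on the minus strand, that of Six5 is chr7:19094294-19094593 on the plus strand and that of Eya3 is chr4:132638796-132638986 on the plus strand. The Six3 core is chr17:85623076-85623375, inside the Six3 gene and outside its coding exons. The Six5 core is chr7:19092101-19092400, which lies inside the neighbouring gene Dmpk and overlaps a Dmpk coding exon. Both cores are printed on the plus strand.
Six2 promoter: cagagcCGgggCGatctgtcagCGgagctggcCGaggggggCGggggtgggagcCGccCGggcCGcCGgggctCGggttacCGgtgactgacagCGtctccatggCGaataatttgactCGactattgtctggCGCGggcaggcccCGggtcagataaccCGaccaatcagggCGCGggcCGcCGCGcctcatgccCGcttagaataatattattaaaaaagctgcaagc
Six5 promoter: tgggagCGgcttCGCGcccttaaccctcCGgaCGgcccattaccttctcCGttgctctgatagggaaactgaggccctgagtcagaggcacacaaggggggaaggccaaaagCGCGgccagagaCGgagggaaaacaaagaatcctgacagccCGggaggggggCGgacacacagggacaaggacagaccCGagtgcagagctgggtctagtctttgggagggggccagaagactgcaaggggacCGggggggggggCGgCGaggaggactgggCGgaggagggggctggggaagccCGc
Eya3 promoter: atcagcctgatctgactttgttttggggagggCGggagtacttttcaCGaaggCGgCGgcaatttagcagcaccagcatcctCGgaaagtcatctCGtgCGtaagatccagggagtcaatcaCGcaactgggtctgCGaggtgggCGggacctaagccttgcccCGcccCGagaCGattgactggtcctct
Six3 peak core: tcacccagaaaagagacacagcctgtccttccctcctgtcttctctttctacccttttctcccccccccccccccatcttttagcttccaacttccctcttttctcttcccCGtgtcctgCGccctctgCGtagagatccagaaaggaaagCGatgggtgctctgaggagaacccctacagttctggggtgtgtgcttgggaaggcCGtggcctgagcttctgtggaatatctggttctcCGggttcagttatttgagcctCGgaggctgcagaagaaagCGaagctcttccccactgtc
Six5 peak core: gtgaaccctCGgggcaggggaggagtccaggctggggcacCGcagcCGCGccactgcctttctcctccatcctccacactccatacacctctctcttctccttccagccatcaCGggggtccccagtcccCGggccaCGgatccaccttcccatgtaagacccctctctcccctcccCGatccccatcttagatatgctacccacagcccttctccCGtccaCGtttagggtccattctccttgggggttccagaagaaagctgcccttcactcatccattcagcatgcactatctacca

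The printed Six2 stretch held 24 CpGs in 230 bp, the Six5 stretch 17 in 300 bp and the Eya3 stretch 13 in 191 bp. The Six3 core held 8 CpGs and the Six5 core 10, each in 300 bp. Over the RefSeq windows of 300 bp around a gene start, available for 7 of the 9 genes, the count ran from 14 CpGs at Six3 to 37 at Six2, against a median of 15 over 16522 protein-coding promoters. Six4, Six6, Eya3 and Eya4 lay between these, with 25 CpGs at Eya3 and 36 and 28 in the 2 windows of Eya4. The observed over expected CpG ratio reached 0.6 in 6 of the 7 genes, Six5 at 0.559 being the exception, and in 52.4% of all promoters. CpG content was set beside the mark as a description. Eya3, with a CpG-rich window, had no peak, while Six3, with the fewest CpGs at its RefSeq start, lay in the widest domain.

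Promoter peaks were found at 6 of the 9 genes, namely Six2, Six3, Six5, Six6, Eya2 and Eya4, in at least 1 library. Over all protein-coding genes this share was 15.9%. Six5 and Eya2 were lost, leaving 4 genes, when only peaks above the library's median total signal or the 1047 strongest peaks of each library were counted. None of the 9 promoters was called in all 6 libraries, as 2.66% of all promoters were. With the gene body added, Six2 and Six3 were called in all 6 libraries (3.49% of all genes), Six4 was called in 2, and Eya1 and Eya3 had no peak anywhere (at least 1 library, 17.6% of all genes). By library, WT replicates 1, 2 and 3 had 4, 4 and 1 of the 9 promoters called and KO replicates 5, 6 and 4, where 10.6%, 13.0% and 3.50% and then 12.9%, 12.2% and 8.11% of all promoters were called.

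**Figure D1:**
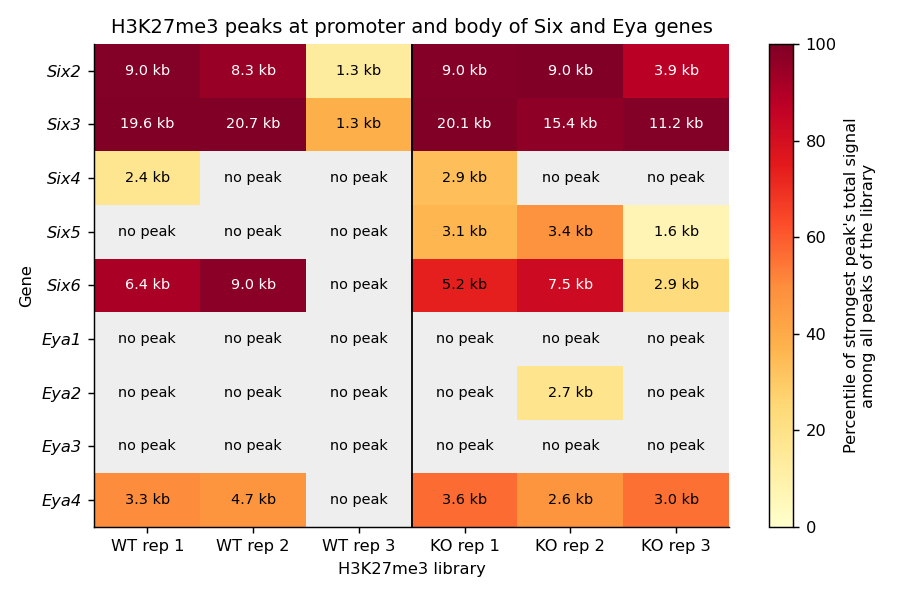
Each row is a gene and each column an H3K27me3 library, with 3 WT libraries to the left of the line and 3 KO libraries to the right. The colour gives the percentile of the gene's strongest peak by total signal among all peaks of that library, and the printed value gives the kb of promoter and gene body covered by peaks. Six3 and Six2 are dark in 5 of 6 libraries, Six5 is coloured in the 3 KO libraries, and Eya1 and Eya3 have no peak.

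Six3, a regulator of forebrain and eye development (ENSMUSG00000038805.10, chr17:85613608-85629302, plus strand), carried the widest domain of the 9 genes. Peaks covered 19.6, 20.7 and 1.32 kb of its promoter and body in WT replicates 1, 2 and 3, and 20.1, 15.4 and 11.2 kb in the KO replicates. The genotypes overlapped, with WT replicate 3 far below the other 5 libraries and only a single narrow peak inside the gene. Means were 13.9 ± 10.9 kb in WT and 15.6 ± 4.49 kb in KO (SD, n = 3 each, p = 0.9 by an exact two-sided permutation test, for which 3 against 3 cannot go below 0.1). The mean difference, KO minus WT, was -4.61 kb without WT replicate 3, opposite in sign to that with it. A covered length above 10 kb in at least 1 library was found at 2.92% of protein-coding genes.

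The rank of the strongest Six3 peak within its own library does not depend on depth scaling. It is a rank among called peaks only, whose number and weakest total differ between libraries. In KO replicate 2, where Six3 was cut into 4 peaks, it is the rank of the strongest of these. By total signal, which adds up the fragment coverage along a peak, the strongest peak stood at percentiles 99.7, 99.9 and 38.3 in the WT replicates and 99.4, 96.6 and 98.9 in the KO replicates. The highest coverage at the gene was 12, 18 and 6 fragments in WT and 15, 17 and 11 in KO. These maxima stood at percentiles 86.0, 99.7 and 52.2 in WT and 94.5, 99.6 and 65.4 in KO. By total signal Six3 was thus among the strongest peaks of every library except WT replicate 3, whereas by maximum signal it was lower also in KO replicate 3. The stretch called in all 6 libraries, chr17:85622568-85623883, was 1316 bp long and lay inside the gene, 1537 bp from the nearest annotated TSS, and it contains the core sequence given above. The WT replicate 3 peak is that stretch itself, so its promoter was not called there, which left promoter calls in 2 WT and 3 KO libraries.

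Six2, which maintains nephron progenitors in the developing kidney (ENSMUSG00000024134.11, chr17:85684277-85688274, minus strand), was covered over nearly its whole promoter window and body in 4 libraries. Covered length was 8.998, 8.31 and 1.33 kb in the WT replicates and 8.998, 8.998 and 3.86 kb in the KO replicates. Both replicate 3 libraries were lower than the other 4, and the genotypes overlapped (6.21 ± 4.24 kb in WT and 7.28 ± 2.97 kb in KO, SD, n = 3 each, exact two-sided permutation p = 0.7). Leaving out WT replicate 3 gave a mean difference, KO minus WT, of -1.37 kb, opposite in sign to that with it. The strongest Six2 peak stood at percentiles 98.9, 94.6 and 13.0 for the WT replicates and at 98.8, 99.6 and 87.8 for those of KO.

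The Six2 promoter was called in 3 WT and 2 KO libraries, the only 1 of the 9 genes with fewer KO than WT calls, as 2.29% of all genes were. The missing call rested on a short distance. The KO replicate 3 peak ended inside the gene, 121 bp from the nearest TSS, just beyond the 100 bp that the promoter window takes in. It was called when the promoter was taken as 1 kb either side of a TSS. The WT replicate 3 peak lay on the other side of the start, from 652 bp upstream of it, so no base of Six2 was called in all 6 libraries. Without WT replicate 3, the remaining 5 libraries shared a stretch of 5024 bp, chr17:85682507-85687530, across most of the gene.

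Six3 and Six2 are neighbours on chromosome 17, with 54.974 kb between them, and the peaks continued between the genes. In the span of 114.667 kb that holds both genes with 20 kb on each side, peaks covered 59.9, 66.5 and 4.47 kb in the WT replicates and 60.6, 60.4 and 20.7 kb in the KO replicates. The 4 libraries read at 75 bp thus lay close to each other in both genotypes, and both 50 bp libraries lay below them. Between the genes the covered length was 22.4, 23.3 and 1.83 kb in WT and 20.04, 22.01 and 5.72 kb in KO. The span was not a single block in any library, being cut into 6, 8 and 3 peaks in WT and 9, 10 and 4 in KO.

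**Figure D2:**
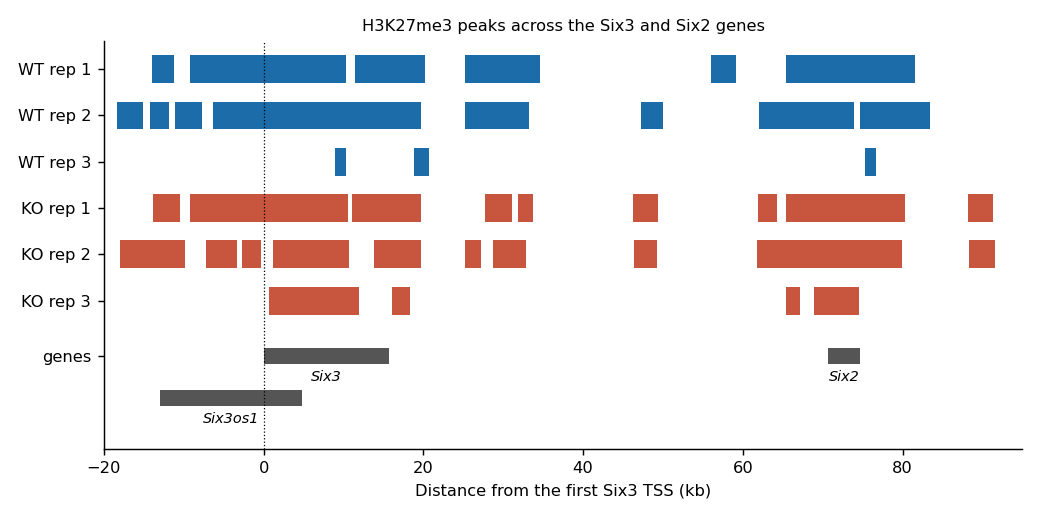
Horizontal bars are called H3K27me3 peaks in the 3 WT (blue) and 3 KO (red) libraries, drawn to scale against distance in kb from the first Six3 TSS, with gene models in grey below. Peaks surround both genes in replicates 1 and 2 of both genotypes, and the replicate 3 libraries hold 3 (WT) and 4 (KO) peaks across the span.

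Total signal at the Six3 and Six2 domains was compared between genotypes by limma over the 718 merged regions called in all 6 libraries. The Six3 region, chr17:85595309-85634317, had total signals of 4.82, 5.02 and 2.03 times the library's median shared region in the WT replicates and 4.25, 4.43 and 2.82 times in the KO replicates. The Six2 region, chr17:85675358-85697054, had 2.502, 2.501 and 0.759 times in WT and 2.47, 2.61 and 1.73 times in KO. In both regions the KO values lay inside the WT range or, for Six2 in KO replicate 2, marginally above it. The log2 difference, KO minus WT, was 0.04 ± 0.41 (SE, 95% interval -0.88 to 0.96, adjusted p = 0.993) at Six3 and 0.41 ± 0.47 (SE, -0.64 to 1.46, adjusted p = 0.993) at Six2. Of the 718 regions, 0 passed an adjusted p of 0.05 in limma and 8, or 1.11%, had an unadjusted p under 0.05.

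The sign of these differences depended on the libraries fitted. Without WT replicate 3 the log2 difference was -0.38 ± 0.33 at Six3 and -0.15 ± 0.32 at Six2 (SE, limma adjusted p = 0.943 and 0.977), opposite in sign to those with it. At Six3 it was also negative without KO replicate 1 (-0.05) and without KO replicate 2 (-0.08). In the 75 bp libraries alone it was -0.17 ± 0.31 and 0.04 ± 0.31. The intervals leave room for differences of about this size in either direction at both genes.

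**Figure D3:**
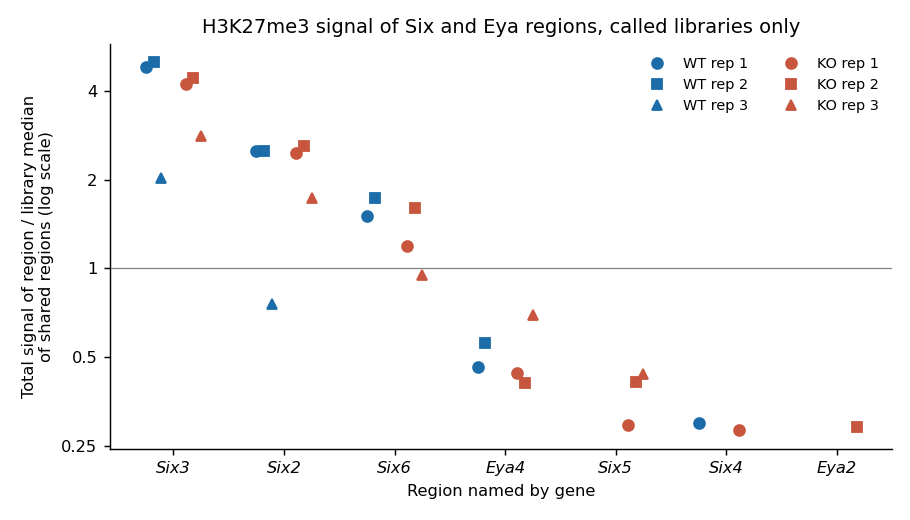
Points give total signal of the merged H3K27me3 region at each gene, divided by the library's median over the 718 regions called in all 6 libraries (log scale), for the called libraries of WT (blue) and KO (red), with replicate shown by shape. Six3 and Six2 lie above 1 in all libraries except WT replicate 3 at Six2 (0.759), while Six4, Six5, Eya2 and Eya4 lie below 1.

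Six6, a retinal and pituitary homeobox gene (ENSMUSG00000021099.6, chr12:72939892-72944899, plus strand), was marked in all libraries except WT replicate 3. Peaks covered 6.38, 8.97 and 0 kb of promoter and body in the WT replicates and 5.20, 7.45 and 2.91 kb in the KO replicates. The genotypes overlapped (5.12 ± 4.62 kb in WT and 5.19 ± 2.27 kb in KO, SD, n = 3 each, exact two-sided permutation p = 1). When WT replicate 3 was left out, the mean difference, KO minus WT, was -2.49 kb. In WT replicates 1 and 2 a single peak spanned the gene. In each KO library the domain was cut into 2 peaks, with 1119, 1984 and 3520 bp inside the gene left uncalled in replicates 1, 2 and 3. The wider domain was not whole in WT either, since WT replicate 1 had a further separate peak past the gene's end. This difference was noticed after the values were seen. Of 1715 coding genes called at promoter or body in at least 2 WT and all 3 KO libraries, 3 (0.175%) had more peaks in every KO than in every called WT library, and 24 (1.40%) had fewer. The stretches common to the 5 libraries were accordingly 2, chr12:72938580-72940891 across the TSS and chr12:72944787-72946711 from the gene's end onward.

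The strongest single Six6 peak ranked at percentiles 91.3 and 97.5 in the called WT libraries and at 73.6, 82.2 and 22.8 in the KO libraries. Because a cut domain counts as separate peaks, the sum over the region is the closer comparison. For the WT libraries with a call this sum was 1.502 and 1.73 times the median shared region, against 1.19, 1.60 and 0.948 times for the KO libraries, so that KO replicate 2 lay between the WT values. In limma the log2 difference at Six6 changed sign between settings that differ in libraries, in regions and in the handling of an uncalled library. It was -0.39 ± 0.33 (SE, adjusted p = 0.943) without WT replicate 3, -0.21 ± 0.32 in the 75 bp libraries and 0.21 ± 0.46 over the regions called in at least 3 libraries, where an uncalled library was given its weakest peak's signal (adjusted p = 0.9997 and 0.999).

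Six4, a family member that acts in muscle and sensory development (ENSMUSG00000034460.9, chr12:73099609-73113456, minus strand), had no promoter peak. A narrow peak began inside the gene, 446 bp from the nearest TSS, in WT replicate 1 and KO replicate 1, covering 2.44 and 2.87 kb at percentiles 17.4 and 33.6. Its call was equal between genotypes, at 1 of 3 libraries each. With a promoter of 1 kb either side of a TSS the same peaks were counted there.

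Six5, which is adjacent to the myotonic dystrophy kinase gene Dmpk (ENSMUSG00000040841.5, chr7:19094594-19098549, plus strand), was the only 1 of the 9 whose promoter window was called in all 3 KO and no WT library. Over all protein-coding genes 19 had this pattern (0.0866%), and 0.00911% had its opposite. With the gene body counted as well, Six5 was again the only 1 of the 9 with this pattern (0.0729% of all genes). Covered length was 0 kb in each WT library and 3.12, 3.36 and 1.62 kb in the KO replicates (2.70 ± 0.942 kb, SD, n = 3). The genotypes did not overlap, and every KO library lay above every WT library at 1.58% of the 3860 coding genes with a peak, and every WT above every KO library at 0.0777%. The exact two-sided permutation p was 0.1, the smallest that 3 against 3 allows, and the adjusted p over all 3860 genes was 1. In the same-numbered pairs KO was higher in 3 of 3 (exact two-sided sign-flip p = 0.25, also the smallest possible). With 0 kb in every WT library any pairing gives this result, so it adds nothing to the call pattern.

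The Six5 calls were weak and lay away from the start of the gene. Total signal of the peaks was 10708, 12243 and 7024 in KO replicates 1, 2 and 3, at percentiles 36.1, 47.9 and 7.03 of their libraries, and the weakest peak called in KO replicate 3 had a total of 6711. Highest coverage was 8, 8 and 9 fragments. These values are below the library median by total signal in each KO library. Whether weaker signal lay at the same place in the WT libraries cannot be read from called peaks.

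All 3 Six5 peaks lay wholly inside Dmpk (ENSMUSG00000030409.15, chr7:19083849-19093821, plus strand), which ends 773 bp before the Six5 TSS. Their near edges were 1120, 1083 and 1013 bp upstream of the Six5 TSS, and the stretch shared by the KO libraries was chr7:19091958-19093474. Dmpk itself was therefore not marked in KO alone. WT replicate 1 had a peak further upstream in Dmpk, chr7:19085531-19088591, and KO replicate 1 one at nearly the same place. The Six5 pattern was lost, with 0 of 9 genes called in all KO and no WT library, when the promoter was taken as 1 kb either side of a TSS, when only peaks above the library's median total signal were counted and when the 1047 strongest peaks of each library were used.

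**Figure D4:**
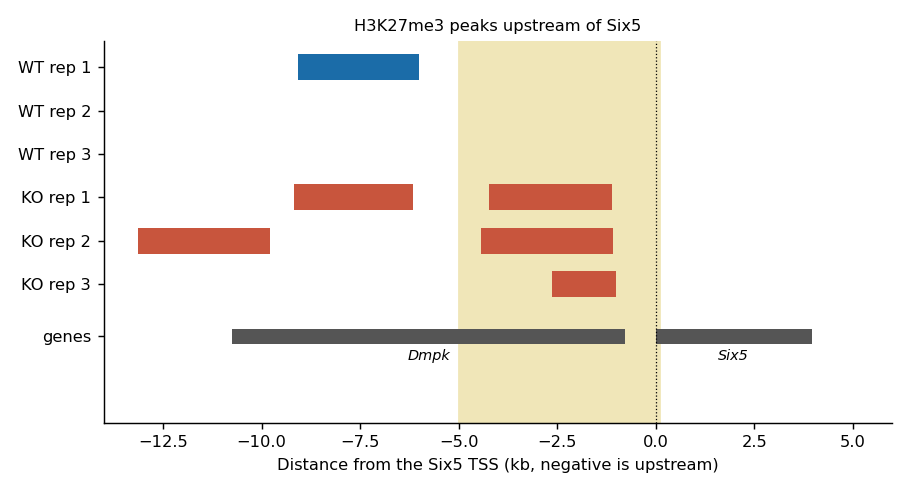
Horizontal bars are called H3K27me3 peaks in the 3 WT (blue) and 3 KO (red) libraries against distance in kb from the Six5 TSS, with Dmpk and Six5 in grey and the promoter window, 5 kb upstream to 100 bp downstream, shaded. The 3 KO libraries have a peak inside the shaded window and within Dmpk, ending 1120, 1083 and 1013 bp before the TSS, and no WT library has a peak there.

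Among the EYA coactivators, Eya4, a gene linked to hearing and heart function (ENSMUSG00000010461.15, chr10:23102963-23350786, minus strand), was the 1 with a recurrent promoter peak. It was called in 2 WT and 3 KO libraries, with covered lengths of 3.29, 4.74 and 0 kb in the WT replicates and 3.60, 2.57 and 2.98 kb in the KO replicates. The genotypes overlapped (2.68 ± 2.43 kb in WT and 3.05 ± 0.516 kb in KO, SD, n = 3 each, exact two-sided permutation p = 0.9). The mean difference, KO minus WT, was -0.964 kb without WT replicate 3, opposite in sign to that with it. In each library with an Eya4 peak, less was covered at Eya4 than at Six3 and Six2. It was also less than at Six6, except in KO replicate 3 (2.98 kb against 2.91 kb at Six6). The peak stayed at the start of a long gene. The 5 called libraries shared 2050 bp across the TSS, chr10:23349021-23351070, with the highest coverage of the promoter peak between -0.208 and 0.646 kb from the TSS (negative is upstream).

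By total signal, the Eya4 peak ranked close to the middle of every library that had it, at percentiles 49.7 and 47.0 in WT and 56.5, 47.2 and 55.8 in KO. By maximum signal the promoter peak stood at 86.0 and 48.6 in WT and at 65.4, 47.8 and 53.1 in KO, which overlapped. Relative to the median shared region its total signal stood at 0.462 and 0.556 for WT, overlapping the KO values of 0.441, 0.409 and 0.695. WT replicate 3, which had 1047 peaks in all, had no Eya4 peak, and a level below its weakest peak cannot be read from the peak lists used here.

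Eya2, a coactivator of muscle and sensory lineages (ENSMUSG00000017897.18, chr2:165595032-165771727, plus strand), had 1 peak in all, over its start in KO replicate 2. That peak, chr2:165594234-165596918, had a total signal of 8567, at percentile 17.99 of its library, and a highest coverage of 8 fragments. Eya1, required for ear and kidney formation (ENSMUSG00000025932.14, chr1:14168954-14310235, minus strand), and Eya3, a broadly expressed EYA phosphatase (ENSMUSG00000028886.15, chr4:132638987-132724765, plus strand), had no peak at promoter or body in any of the 6 libraries. Within 100 kb of either end of Eya1, Eya3 and Eya4 there was also no further peak in any library. Because only the strongest 0.5% of enriched blocks were kept in each library, no peak means no block of that strength, not absence of the mark.

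**Figure D5:**
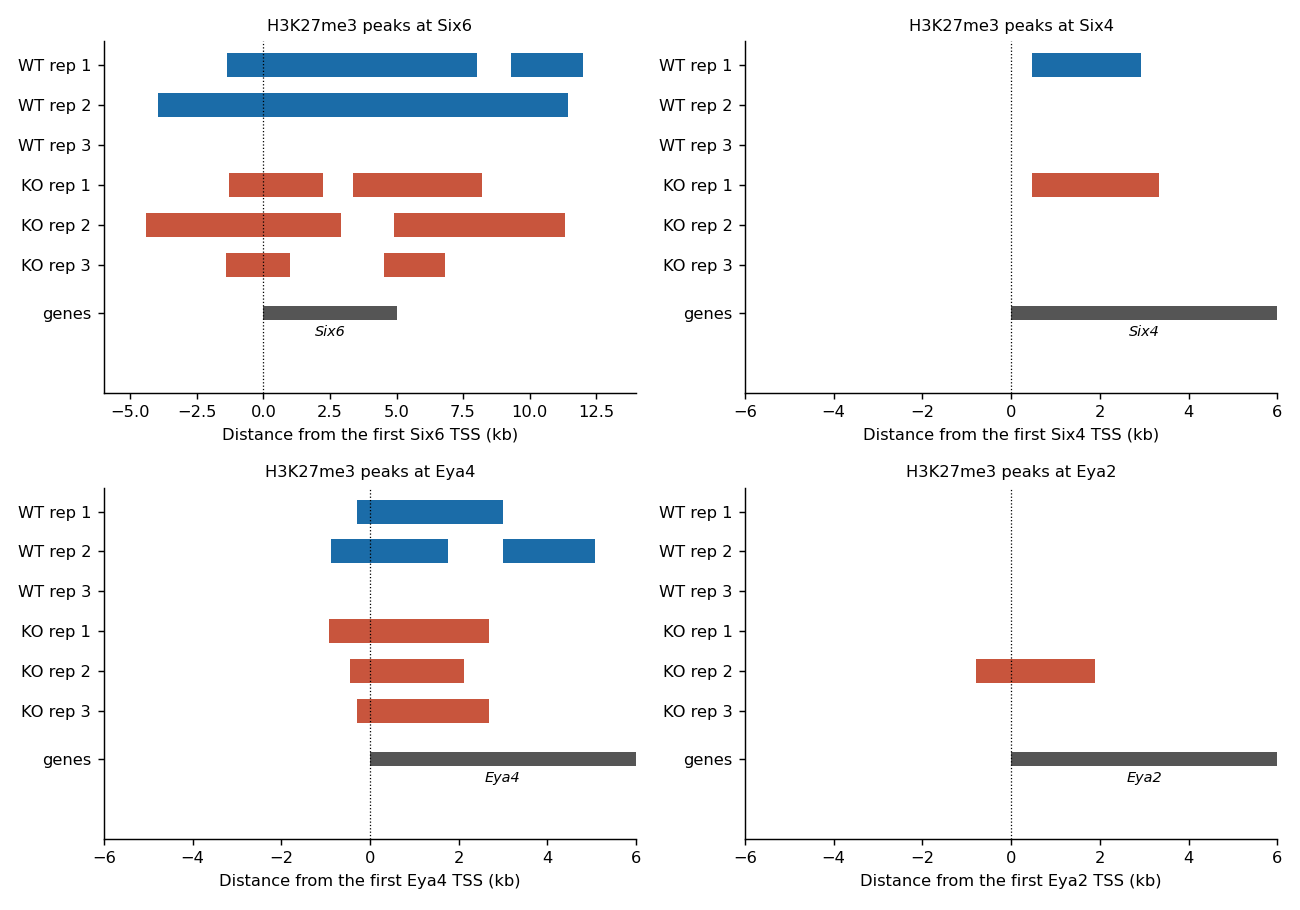
Each panel shows called H3K27me3 peaks in the 3 WT (blue) and 3 KO (red) libraries at Six6, Six4, Eya4 or Eya2, against distance in kb from the first TSS of the gene in its reading direction, with the gene in grey. Six6 is spanned by 1 peak in WT replicates 1 and 2 and by 2 peaks in each KO library, Eya4 is marked at its start in 5 libraries, and Six4 and Eya2 have peaks in 2 and 1 libraries.

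By order of level, the 9 genes fell into groups that the spread over libraries keeps apart only in part. The percentile of the strongest peak over called libraries had a median of 99.1 at Six3 (38.3 to 99.9) and 96.7 at Six2 (13.0 to 99.6), with WT replicate 3 lowest at both. Six6 ranged from 22.8 to 97.5 and Eya4 from 47.0 to 56.5, each overlapping both of these. Six5 ranged from 7.03 to 47.9 and overlapped all 4 of these genes, Eya4 only at its upper end, and Six4 and Eya2, at or below 33.6, lay within the range of Six5. These ranges pool ranks from different libraries. In each library where Eya4 or Six5 was called, it stood below Six3 and Six2. Their overlap with Six3 and Six2 came from WT replicate 3, where Eya4 and Six5 had no peak. Six6 also stood below Six3 and Six2, except in WT replicate 2, at 97.5 against 94.6 for Six2.

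Taking the 9 promoters as a list, WT libraries gave 9 calls and KO libraries 15. In the KO, 5 genes were called in more libraries than in WT, 3 in as many and 1 in fewer. Over all protein-coding genes 7.53% were called in more KO than WT libraries, and among the 3481 called at all the shares were 47.5% with more KO and 14.4% with fewer KO calls, so that more KO than WT calls were also the more frequent case in the background. With the gene body counted, 4 genes had more KO calls (7.88% of all genes) and 0 had fewer (2.49%). WT replicate 3 had the fewest peaks of all libraries. With the 1047 strongest peaks of each library, WT and KO libraries gave 7 calls each, with 2 genes called in more KO libraries (3.16% of all genes), 5 in as many and 2 in fewer (2.25%). In the 75 bp libraries the calls numbered 8 in WT and 11 in KO, with Six5 and Eya2 called in more KO libraries (3.63% of all genes) and 0 genes in fewer (2.38%). A promoter call in both 75 bp KO and no 75 bp WT library, as at Six5, was found at 0.469% of protein-coding genes. No test was made over the list.

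Genes that act with sine oculis and EYA proteins were described from a list of 28 cofactors, network members and known targets. Promoter peaks were found at 17 of the 28 in at least 1 library, against 15.9% of all promoters. In all 6 libraries they were found at Pax2 and Pax6, paired-box factors of kidney and eye, at the kidney zinc finger gene Sall1, and at the eye and forebrain homeobox genes Otx2, Rax and Lhx2. The other 11 with a peak were called in some of the libraries. No promoter peak was found at 11 genes. These were the DACH cofactors Dach1 and Dach2, the Groucho corepressors Tle1, Tle2 and Tle4, the muscle regulators Myf5, Myog and Mef2c, the cell cycle gene Ccnd1, the cytoskeletal linker Ezr and the ion transporter Slc12a2. By genotype, 11 of the 28 were called in more KO than WT libraries, 17 in as many and 0 in fewer. The shares over all protein-coding genes were 7.53% with more and 2.29% with fewer KO calls, and among those called at all they were 47.5% and 14.4%.

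Pax2 was close to Six3 and Six2 in rank, at percentiles 99.4, 99.9 and 92.7 in the WT replicates and 96.1, 98.4 and 94.6 in the KO replicates. It remained high in WT replicate 3, where Six3 stood at 38.3 and Six2 at 13.0. Over the 584 protein-coding genes called at the promoter in all 6 libraries, the 3 with percentiles most like those of Six3 were Tfap2c, Grin1 and Pitx1. Their mean absolute differences from Six3 over the 6 libraries were 1.85, 2.39 and 2.47 percentile points, given as a description.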

How the data were processed

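H3K27me3 was measured by CUT&Tag in 3 WT and 3 KO libraries of E14.5 LT-HSCs, grouped by the sample labels. The authors trimmed the reads with Trim Galore 0.6.6, aligned them to GRCm38 with Bowtie2 2.4.4, removed multi-mapped and duplicate reads and called peaks per library with SEACR 1.3 in stringent mode, keeping the top 0.5% of blocks without an IgG control. The deposited total signal and maximum signal of each peak are sums and maxima of fragment coverage with no scaling to depth, so that raw values rise with depth and the weakest peak kept differs between libraries. Medians of the maximum signal were 6 to 10 fragments, which limits the precision of a single peak.

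Peaks were intersected (at least 1 bp) with GENCODE M21 gene models on GRCm38.p6, and coordinates are 1-based. All 9 genes were named whatever their values, the genes and lists having been chosen with earlier results of these data known. Covered length was compared by an exact two-sided permutation test over the 20 assignments of libraries, with Benjamini-Hochberg adjustment over 3860 genes. Log2 total signal, centred on each library's median, was compared with limma 3.58.1 (R 4.3.3) over 718 merged regions, with adjustment at 0.05, after a test on simulated data. The outcome of that test is not given here, and it is not used as a measure of power. Counts and tables were made with Python 3.11.15, numpy 2.4.6 and pandas 2.3.3. From the list of 28 partner genes, those called in all 6 libraries or in none were named. As replicates were not stated to be separate litters, p-values measure the spread between these libraries. To check pairing, the deviations of WT and KO libraries from their group means were correlated, number by number, across the 718 regions, which are not independent. The r was 0.277, 0.315 and 0.479 for replicates 1, 2 and 3, and an alternative fit with a replicate block took the numbers as pairs. Deviations from a group mean are tied to each other, and correlations between unlike numbers are not given here. These values therefore cannot show that the numbers pair the libraries. Other alternatives were another promoter window, overlap, equal peak numbers, peak height, scaling and leaving out libraries. The 75 bp subset and the omission of WT replicate 3 for the promoter calls were added after seeing the data.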

Additional observations from a re-analysis of the deposited data

How the results depend on the processing

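Of 158 values recomputed under other settings, 22 reversed in sign and 13 moved, a difference that became 0 counting as moved. The others did neither, although some of these also changed in size and some could not change. Eya1 and Eya3, without a peak, gave a covered length difference of 0 kb in every setting. The replicate block leaves a mean difference as it was by design. The count is therefore no measure of stability. The count of genes with a promoter peak, 6, was 4 with peaks above the library median and with equal numbers of peaks. The count called at the promoter in all KO and no WT library, 1 in the report, was 0 with a promoter of 1 kb either side of a TSS, with peaks above the library median and with the 1047 strongest peaks of each library. The count of genes whose covered length did not overlap between genotypes, also 1, was 0 with equal numbers of peaks and with the 1 kb window, where the covered length differences at Six5 and Six4 were 0 kb. With equal numbers of peaks that at Eya2 was 0 kb as well. With equal numbers of peaks the covered length difference (KO minus WT) at Six6 was -2.63 kb. In the 75 bp libraries alone it was -2.41 kb at Six3, -1.35 kb at Six6 and -0.929 kb at Eya4. Leaving out 1 library at a time, it ranged from -1.37 to 2.79 kb at Six2, -4.61 to 5.08 kb at Six3, -0.814 to 0.955 kb at Six4, 2.37 to 3.24 kb at Six5, -2.49 to 2.00 kb at Six6, -0.964 to 1.41 kb at Eya4 and 0 to 1.34 kb at Eya2. The lowest values at Six2, Six3, Six6 and Eya4 came without WT replicate 3. Ranked by maximum signal, the median percentile was 31.5 at Eya2 and 65.4 at Eya4. In WT replicate 2 the Eya4 value, 75.8, came from a second peak inside the gene, the promoter peak standing at 48.6.

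In limma, the log2 difference at Six3 was -0.20 with scaling by the library sum, which moved the median of all regions to -0.26. It was -0.10 on maximum signal, -0.16 on mean signal per covered base, -0.19 with array weights and -0.17 in the 75 bp libraries, but 0.26 over the regions called in at least 3 libraries. At Six2 it was 0.17 with the library sum, 0.05 on maximum signal, on mean signal and with array weights, 0.04 in the 75 bp libraries and 0.64 over the regions called in at least 3 libraries. Leaving out 1 library it ranged from -0.38 to 0.27 at Six3 and from -0.15 to 0.71 at Six2. With the replicate block, which pairs same-numbered libraries, it was 0.04 ± 0.29 at Six3 and 0.41 ± 0.33 at Six2 (SE, adjusted p = 0.984 and 0.907), and the pairing changed no call. In every setting run, 0 regions passed an adjusted p of 0.05 in limma, and 0 to 119 had an unadjusted p under 0.05. The causes of these reversals were not tested. Depth was described here only through the peaks, and a gene below the weakest peak kept could not be compared from the peak lists used.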

Other observations

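The wider surroundings of Six5 and Eya2 held peaks that belong to neither gene's promoter or body. Such outside peaks, within 100 kb of the gene, were found in 5 libraries at Six5 and 3 at Eya2. At Six2, Six3, Six4 and Six6 they were found in all 6 libraries. Near Six5, 4 libraries had a peak whose near edge lay 26.8 to 28.4 kb upstream of the Six5 TSS, present in WT replicates 1 and 2 (total signal 8961 and 12220) and in KO replicates 1 and 2 (23940 and 9951). Neither replicate 3 library had it, so that this neighbouring peak did not show the KO-only pattern of the peak next to Six5. KO replicate 2 also had a peak across the start of Dmpk, chr7:19081453-19084804, which was not called elsewhere. Near Eya2, 3 libraries, at most 1 peak each, had a peak within 100 kb of the gene.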
